A study of Mus musculus with 14 samples.

Results

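RNA-Seq of 7 libraries from mouse CD4+ T cells that lacked HDAC1 was compared directly: 4 libraries of HDAC1cKO-HDAC2HET cells, which also carried only 1 intact Hdac2 allele, against 3 libraries of HDAC1cKO cells, in which both Hdac2 alleles were intact. These 7 mutant libraries were chosen from the 14 libraries of the series by genotype. The other 7 were the WT libraries of the same experiments. The HDAC1cKO-HDAC2HET mice were HDAC1f/f HDAC2f/+ with a CD4-cre transgene, and the HDAC1cKO mice were HDAC1f/f with the same transgene. All mice were on the C57BL/6 background, and the study's methods give both sexes, an age of 6 to 12 weeks and littermate controls. Per the sources, the HDAC1cKO-HDAC2HET libraries and their WT libraries came from independent cell batches prepared together on a single day. For the HDAC1cKO experiment the sources used here do not state that libraries came from separate animals. The spread between those libraries, on which the p-values also rest, may therefore be technical, although its WT libraries were not all of the same sex, as given below. Naive CD4+ T cells sorted from spleen and lymph nodes were activated for 3 days with anti-CD3 and anti-CD28 antibodies and IL-2, without polarizing cytokines (Th0). Only the HDAC1cKO cells and their WT cells were then stimulated again with anti-CD3 for 12 hours, so this WT group is called WT restimulated and the other WT activated. The dosage of Hdac2, the restimulation and the experiment changed together between the mutant groups and cannot be told apart. WT levels or WT differences of the same experiments are therefore given beside many of the mutant values, though not for every gene. Of 43357 autosomal genes with a value in any library, 29398 had a value in all 7 mutant libraries, and 12996 of these had a mean of at least 0.1 FPKM and were tested.

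HDAC1 and HDAC2 are closely related class I histone deacetylases that remove acetyl groups from histone tails as catalytic subunits of the Sin3, NuRD and CoREST corepressor complexes. In T cells the enzymes compensate in part for each other, and loss of one commonly raises the protein of the other. The Cd4-Cre transgene deletes floxed alleles from the double-positive thymocyte stage onward, so CD8+ T cells and every other progeny of these thymocytes also carry the deletion. Renewed T cell receptor (TCR) engagement of an activated T cell induces within hours the genes of cytokines, chemokines, TNF family ligands and feedback regulators, largely through NFAT, AP-1 and NF-κB.

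The targeted genes were measured first. FPKM, the fragments of a gene divided by its transcript length and by the mapped fragments of the library, was scaled so that the median gene was level across libraries, and every level below is a scaled FPKM, given in the order of the replicate numbers. Levels of different genes can be set side by side, since FPKM is per length. Hdac1 (chr4:129516104-129542713, GRCm38) was at 7.26, 11.1, 9.07 and 6.82 in the HDAC1cKO-HDAC2HET and at 8.2, 11.7 and 9.13 in the HDAC1cKO libraries, and at 69.5 to 75.5 in WT restimulated and 78.4 to 81.5 in WT activated libraries. The mutant groups overlapped, and the log2 difference of HDAC1cKO-HDAC2HET minus HDAC1cKO was -0.19 ± 0.20 (SE; adjusted p = 0.469, limma, with Benjamini-Hochberg adjustment over all 12996 genes, as for every adjusted p of this comparison). Hdac2 (chr10:36974544-37001889) was at 35.4, 35.6, 37.9 and 37 in HDAC1cKO-HDAC2HET and at 75.4, 85.7 and 70.9 in HDAC1cKO libraries. These groups did not overlap, and Hdac2 was 2.11-fold lower in HDAC1cKO-HDAC2HET cells (log2 -1.08 ± 0.07, adjusted p = 4.0e-05). WT levels of Hdac2 were 59.6 to 61.8 (WT activated) and 61 to 72.9 (WT restimulated), so the HDAC1cKO-HDAC2HET libraries lay below and the HDAC1cKO mean of 77.3 ± 7.59 (SD, n = 3) lay above the WT mean of its experiment, 68.7 ± 6.69 (SD, n = 3). The WT groups differed in Hdac2 by -0.18 ± 0.07 on the log2 scale (adjusted p = 0.0948). Of the 9 class I, II and IV histone deacetylase genes tested, Hdac2 alone passed the threshold used below, while the log2 differences of all 9 ran from -1.08 to 0.60 with a median of -0.16. Hdac7, a class II enzyme abundant in lymphocytes, was at 79.8 to 105 and 93.7 to 98 in the mutant groups.

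**Figure D1:**
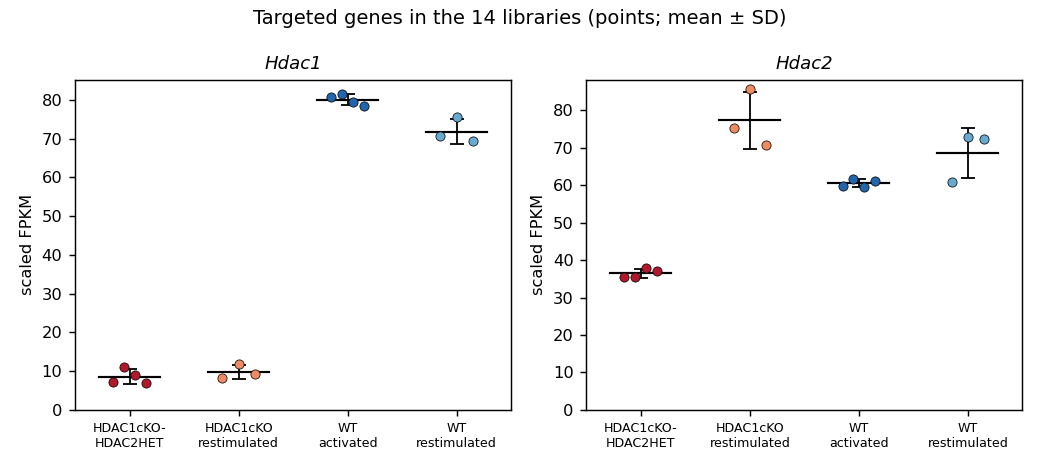
Scaled FPKM of Hdac1 and Hdac2 in each of the 14 libraries (points), with the group mean and SD. Hdac1 was 6.82 to 11.1 in HDAC1cKO-HDAC2HET and 8.2 to 11.7 in HDAC1cKO libraries, far below the WT groups, and Hdac2 was 35.4 to 37.9 in HDAC1cKO-HDAC2HET and 70.9 to 85.7 in HDAC1cKO libraries.

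Depth estimated from the confidence bounds of the files was 25100000 to 59400000 fragments in the HDAC1cKO-HDAC2HET and 37200000 to 49400000 in the HDAC1cKO libraries. The 10 T cell markers (such as Cd3e, Cd4, Trac) summed to 2738 to 2916 scaled FPKM in HDAC1cKO-HDAC2HET and 2464 to 2819 in HDAC1cKO libraries. Of 7 B cell markers, 5 had a value in all 14 libraries and summed to 2.9 to 4.61 against 0.707 to 0.994 in the mutants and at most 0.985 in WT libraries. The 2 CD8 chains summed to 12.2 to 15.6 against 6.33 to 6.89. Myeloid markers, 10 of 13 with values, summed to 0.305 to 1.45 against 0.35 to 0.646, with S100a8, S100a9 and Elane listed at 0 in both mutant groups. Erythroid and platelet markers (7 of 9) summed to 0.181 to 0.629 against 0.0839 to 0.249, and NK and γδ T cell markers (6 of 9) to 0.172 to 0.554 against 0.543 to 0.98. Their part in the results below was not tested, and in bulk samples fewer cells of a type and less RNA per cell cannot be told apart. Xist, transcribed from the inactive X of female cells, was at 26 to 33.7 FPKM in the 4 HDAC1cKO-HDAC2HET and at no more than 0.0435 in the 3 HDAC1cKO libraries, so sex was a further difference between the mutant groups that cannot be told apart from the others, and only autosomal genes were compared. WT activated libraries were at 58.9 to 65.2, and WT restimulated libraries at 42.9, 0.0188 and 33.2. Replicate 2 of WT restimulated thus differed in sex from replicates 1 and 3, so the spread in that group was not technical alone.

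Of the 12996 genes tested, 832 (6.40%) were higher and 991 (7.63%) were lower in HDAC1cKO-HDAC2HET than in HDAC1cKO cells, by at least 2-fold and at an adjusted p of at most 0.05. These criteria define a called gene in all that follows, and the median log2 difference of all genes was -0.01. With a pseudocount of 1 in place of 0.1, which shrinks the differences of low genes, the counts were 385 and 483, and among the genes named below Abca1, Ahr, Cd8b1, Egr4, Entpd1, Ikzf3, Il13, Il1r2, Klrc1, Bmf, Rcor2, Spry4, Tnfrsf26 and Trp53inp1 fell under 2-fold. The same comparison in WT cells, WT activated minus WT restimulated, called 555 (4.26%) higher and 844 (6.48%) lower of 13021 genes, again with a median of -0.01. Counts of called members in every gene list below are to be read beside these shares of all genes. The mutant and WT comparisons share no library, but they share the restimulation and the experiment. Among 12110 genes tested in both, the log2 differences correlated with r = 0.65 (Pearson) and rho = 0.58 (Spearman) across genes, which are not independent replicates. Of 1663 genes called between the mutants and also tested in WT cells, 781 were called in the same direction in WT cells, 323 higher and 458 lower, and 9 in the opposite one. This was 47.0% of the genes called in mutants and 61.7% of the 1265 called in WT cells and tested in the mutants. The remaining 398 higher and 475 lower genes were called between the mutants without being called between the WT groups, which does not show that the differences were unlike. That was tested with a contrast over all 14 libraries, the mutant difference minus the WT difference. Among 12853 genes, 379 (2.95%) were above 0 and 237 (1.84%) below 0 by at least 2-fold, with adjusted p of at most 0.05. This contrast shares its libraries with both other comparisons, so the values are set side by side and no overlap is counted.

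**Figure D2:**
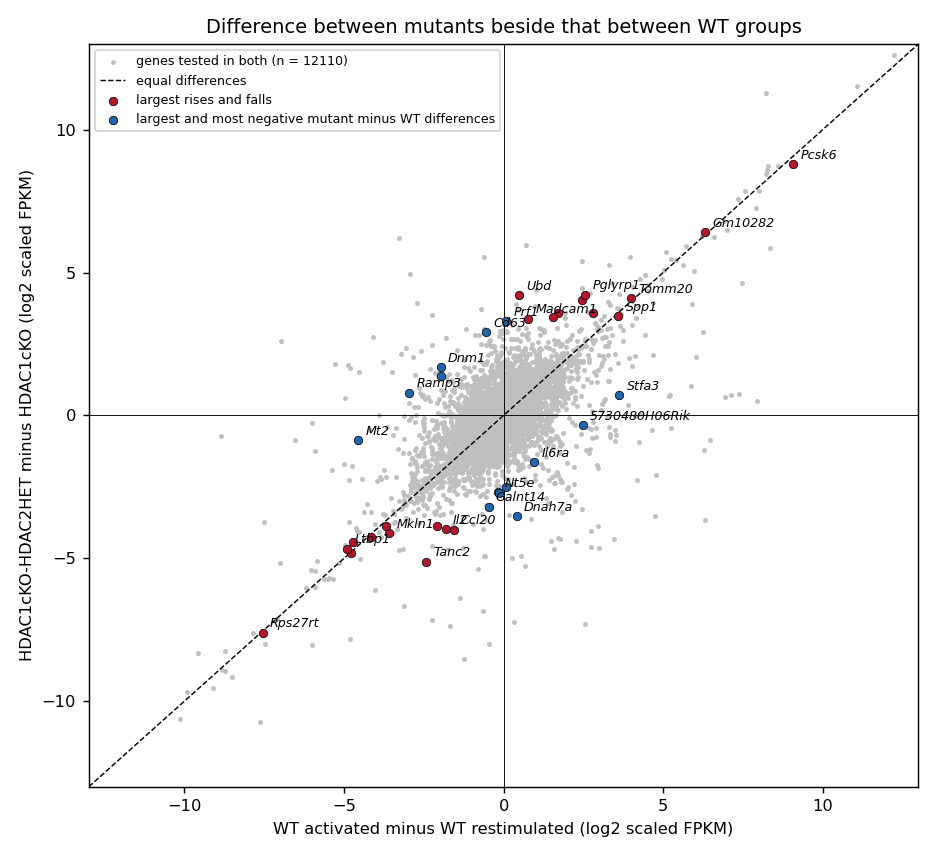
Log2 difference between the mutant groups (y axis) against that between the WT groups (x axis) for the 12110 genes tested in both (gray). The genes named for the largest rises and falls are red, and those named for the largest difference from WT are blue; Pcsk6 and Rps27rt lie on the dashed line of equal differences, while Ubd, Prf1 and Dnah7a lie far from it.

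Chemokine genes had the lowest median of the lists. Of 11 chemokine genes tested, 9 were lower in HDAC1cKO-HDAC2HET cells and none was higher, with a median log2 difference of -1.85. In WT cells 7 of 12 were lower in WT activated cells, with a median of -1.71. Of 25 cytokine genes, 8 were lower and 1 was higher, with a median of -0.50, against 6 lower of 22 in WT cells, with a median of -0.31. Il2 encodes the growth factor that activated T cells secrete for themselves. It was at 10.6, 17.9, 23.1 and 13.6 in HDAC1cKO-HDAC2HET and at 156, 305 and 326 in HDAC1cKO libraries. The groups stood apart by 15.9-fold (log2 -3.99 ± 0.34, adjusted p = 0.000149). WT activated libraries were at 80.5, 47.7, 73.1 and 57.1 and WT restimulated libraries at 238, 179 and 262, also without overlap but with a smaller difference (log2 -1.82 ± 0.21, adjusted p = 0.00109). The mutants thus differed by more than the WT groups did (mutant minus WT -2.17 ± 0.43, adjusted p = 0.0059), with the HDAC1cKO-HDAC2HET libraries lowest of the 4 groups. Ccl20, the ligand of CCR6, was at 0.213, 0.089, 0.0826 and 0.234 in HDAC1cKO-HDAC2HET and at 3.17, 3.78 and 4.69 in HDAC1cKO libraries and at 0.922, 2.17, 0.897 and 0.59 in WT activated and at 2.56, 1.54 and 8.38 in WT restimulated libraries. The mutant groups did not overlap (16-fold lower, log2 -4.00 ± 0.28, adjusted p = 6.4e-05), whereas the WT groups did, and the mutant difference was the larger (mutant minus WT -2.44 ± 0.73, adjusted p = 0.0429).

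The proximal promoters of these 2 genes are shown because Il2 and Ccl20 were the cytokine and the chemokine among the 12 largest falls. The 250 bases before the RefSeq start in GRCm38.p6 are given 5′ to 3′ on the strand of the gene, from chr3:37125955-37126204 (minus strand) for Il2 and chr1:83116516-83116765 (plus strand) for Ccl20. Capitals mark the letters GGAAAA, the core that NFAT binds, on either strand.
Il2: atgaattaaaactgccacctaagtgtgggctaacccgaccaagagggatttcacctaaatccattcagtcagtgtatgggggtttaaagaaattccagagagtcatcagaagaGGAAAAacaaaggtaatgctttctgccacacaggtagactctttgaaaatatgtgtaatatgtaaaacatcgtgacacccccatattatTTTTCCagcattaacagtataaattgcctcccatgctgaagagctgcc

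Ccl20: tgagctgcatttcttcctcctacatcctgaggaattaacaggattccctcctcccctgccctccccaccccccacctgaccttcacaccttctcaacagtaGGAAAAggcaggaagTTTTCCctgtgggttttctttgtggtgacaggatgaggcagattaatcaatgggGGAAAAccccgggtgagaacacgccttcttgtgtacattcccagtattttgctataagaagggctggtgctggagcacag
Il2 held 2 matches, starting 137 and 48 bases before the start, and Ccl20 held 3, starting 149, 134 and 80 bases before it. Of 27025 promoters, 20.6% held this motif, as did 6 of the 14 promoters at hand among the 17 cytokine and chemokine genes called lower. The AP-1 motif TGANTCA was in 6.87% of all promoters and in 3 of the 14. A match is a description of letters and shows no binding. Among the named genes in which exons overlap another gene, reads of the 2 genes may be mixed, since the sources do not say that counting used strand: these include Cxcl10 (with Art3), Il12rb2 (with Serbp1) and Bid (with Bcl2l13).

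Most of the other lower ligand genes were also lower in WT activated cells. Tnfsf11, encoding RANKL, was at 20 to 30.3 in HDAC1cKO-HDAC2HET and at 126 to 218 in HDAC1cKO libraries, 7.45-fold lower (adjusted p = 8.2e-05), and the WT difference was -2.34 ± 0.19 (adjusted p = 0.000198) beside -2.90 ± 0.22 in mutants. The inflammatory chemokines Ccl3 and Ccl4 were at 65.1 to 130 and 75.8 to 130 in HDAC1cKO-HDAC2HET and at 349 to 404 and 395 to 416 in HDAC1cKO libraries. Both were lower without overlap in both genotypes, by -1.85 ± 0.24 and -1.94 ± 0.18 in mutants (adjusted p = 0.000868 and 0.000206) and by -1.35 ± 0.21 and -1.10 ± 0.15 in WT cells. Xcl1 and Ccl22, ligands of XCR1 and CCR4, had mutant differences of -1.93 ± 0.43 and -2.52 ± 0.43 and WT differences of -2.05 ± 0.45 and -2.49 ± 0.39. Ccl1, at 2.45 to 4.02 against 20 to 56.7, was 10.9-fold lower (adjusted p = 0.000288), but the loci behind its values shared under 0.8 of their joint span between the experiments, which limits this comparison. The same limit holds for Il4, with mutant means of 0.655 and 2.59. Il13, the Th2 cytokine, was also lower (-1.66 ± 0.34, adjusted p = 0.00668), with a WT difference of -2.10 ± 0.53. Tnfsf9, encoding 4-1BB ligand, behaved differently: it was at 2.37, 2.05, 1.73 and 1.82 in HDAC1cKO-HDAC2HET and at 7.04, 15.6 and 11.6 in HDAC1cKO libraries (log2 -2.40 ± 0.26, adjusted p = 0.000429) but at 11.1 to 14.2 and 11.4 to 23.5 in the overlapping WT groups, and the difference from WT passed the test (-1.95 ± 0.38, adjusted p = 0.0053). Ltb, encoding lymphotoxin beta, was the cytokine gene called higher. It was at 233, 261, 210 and 237 in HDAC1cKO-HDAC2HET and at 49.9, 46.6 and 43.7 in HDAC1cKO libraries, 5.02-fold apart (adjusted p = 2.6e-06). It was at 162 to 192 in WT activated cells and at 49.4 and 43.8 in the 2 WT restimulated libraries with a value.

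The Th1 effector cytokine genes Ifng, Tnf and Csf2 were not called in the mutant comparison. Ifng, encoding IFN-γ, was at 70.3, 103, 78.6 and 81.4 in HDAC1cKO-HDAC2HET and at 48.9, 41.3 and 90.3 in HDAC1cKO libraries, with overlapping groups and a log2 difference of 0.54 ± 0.27 (adjusted p = 0.147, 95% interval -0.11 to 1.19). Both mutant groups lay above the WT groups of their experiments, which reached 1.56 and 3.79. Tnf was lower by -0.70 ± 0.10 (adjusted p = 0.00132), below 2-fold, with 38.2 to 50.6 against 68.4 to 72.2. Csf2, encoding GM-CSF, was at 25, 34.2, 47.7 and 34.5 in HDAC1cKO-HDAC2HET and at 24.9, 90.8 and 82.6 in HDAC1cKO libraries and was not called (-0.73 ± 0.47, adjusted p = 0.244). Without HDAC1cKO replicate 1, whose level lay just below the lowest HDAC1cKO-HDAC2HET library, it was called at -1.33 (adjusted p = 0.00859). Csf2 was called lower in WT activated cells, at 5.68 to 12.9 against 22.6 to 59.8 in WT restimulated libraries (-2.40 ± 0.41, adjusted p = 0.00552). The mutant minus WT difference of 1.66 ± 0.67 was not called (adjusted p = 0.121).

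Of 29 transcription factor genes induced by the TCR, 2 were lower and 1 was higher, beside 7.63% and 6.40% of all genes, with a median of -0.25, against 4 lower and 1 higher of 29 in WT cells. The count of lower genes in the mutants was 5 without HDAC1cKO replicate 1 and 4 with unscaled FPKM, and without WT activated replicate 2 or WT restimulated replicate 1 the count in WT cells was 1 or 2. The AP-1 subunit gene Fosb was at 0.181, 0.192, 0.235 and 0.375 against 2.01, 1.46 and 1.89 (log2 -2.47 ± 0.23, adjusted p = 0.000221), and its WT difference of -1.57 ± 0.59 did not pass (adjusted p = 0.0856). Egr4 was at 0.203, 0.135, 0.211 and 0.242 against 0.707, 0.955 and 0.927 in mutants (log2 -1.70 ± 0.20, adjusted p = 0.000622) and at 1.87 to 2.39 and 1.62 to 2.35 in the overlapping WT groups. For Egr1, an early growth response factor, the direction differed between genotypes: HDAC1cKO-HDAC2HET libraries were at 44.2, 36.5, 48.4 and 42.3 and HDAC1cKO libraries at 57.2, 67.7 and 65.7 (-0.57 ± 0.11), while WT activated libraries were at 82.8, 88.6, 85 and 81.6 and WT restimulated libraries at 59.7, 70.7 and 56.4 (0.45 ± 0.08). None of these groups overlapped with its partner, and the mutant minus WT difference was -1.02 ± 0.14 (adjusted p = 0.000706). Nr4a1, a reporter of recent TCR signals, was lower in HDAC1cKO-HDAC2HET cells by less than 2-fold (-0.83 ± 0.08, 118 to 147 against 238 to 246), as was Fos (-0.70 ± 0.11). Batf3, a BATF family factor, was called higher (15.1 to 26.4 against 8.95 to 11, log2 1.12 ± 0.19, adjusted p = 0.00305), with a WT difference of -0.30 ± 0.49 (adjusted p = 0.674). Among 31 signalling feedback inhibitors, 7 were lower and 4 higher, with a median of -0.47, and in WT cells 4 were lower and 3 higher of 31. Without genes of unlike loci, 6 were lower and 2 higher of 25 between the mutants. Regulators of G protein signalling led the falls. Rgs1 was at 45.9, 49.2, 61.2 and 47.5 against 352, 328 and 332 (log2 -2.73 ± 0.10, adjusted p = 3.3e-06), with loci just under the limit of likeness between experiments, Rgs2 at 12.2 to 15.6 against 45 to 54.1 (-1.89 ± 0.10) and Rgs16 at 14.2 to 23.1 against 58.1 to 86.4 (-1.88 ± 0.21). The WT differences of these genes were -1.46 ± 0.23, -1.87 ± 0.29 and -0.83 ± 0.10, all in the same direction, and for Rgs1 and Rgs16 the mutant difference was larger than the WT difference (adjusted p = 0.00823 and 0.0143). Higher genes were Socs3 (1.51 ± 0.12, with loci under the same limit), Spry4 (1.43 ± 0.16) and the adaptor gene Sh2d2a (93.6 to 99.9 against 36.5 to 38, 1.38 ± 0.04, WT 1.24 ± 0.09).

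**Figure D3:**
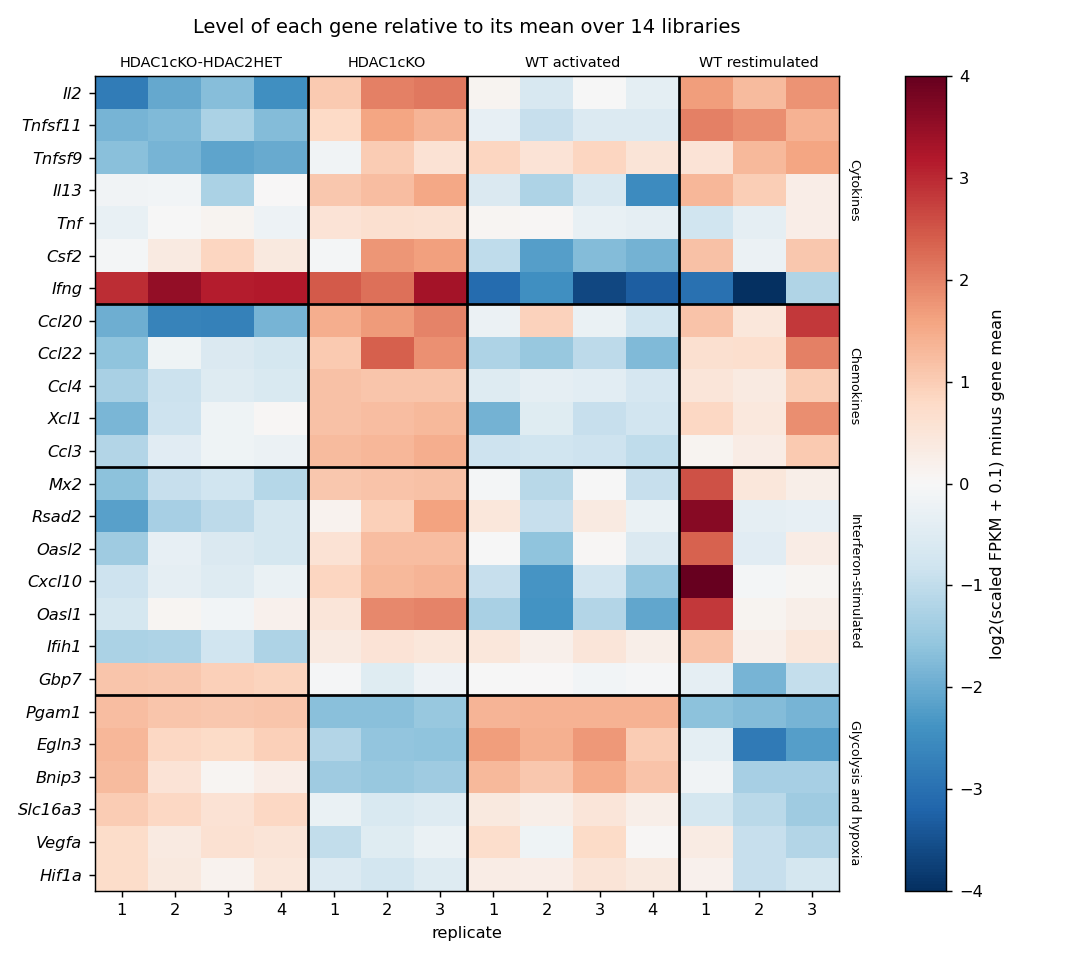
Log2(scaled FPKM + 0.1) of each gene minus its mean over the 14 libraries (color), for cytokine, chemokine, interferon-stimulated and glycolysis genes (rows) in every library (columns, by group and replicate). Il2 and Ccl20 were lowest in HDAC1cKO-HDAC2HET libraries, Ifng was high in both mutants, and WT restimulated replicate 1 stood apart in the interferon-stimulated genes, with Cxcl10 at 64.6.

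Interferon-stimulated genes encode antiviral effectors induced by interferons. Of 37 tested, 10 were lower in HDAC1cKO-HDAC2HET cells, beside 7.63% of all genes, 1 was higher and 26 were not called, with a median of -0.49. In WT cells 1 was lower and 2 were higher of 37 (median -0.26). Mx2, of the dynamin-like GTPase family but annotated as a polymorphic pseudogene, was at 2.05, 3.5, 3.82 and 2.97 against 14.2, 14.7 and 15.2 (log2 -2.25 ± 0.20, adjusted p = 0.00017). Rsad2 (viperin) was at 0.14, 0.33, 0.418 and 0.569 against 1.1, 2 and 3.18 (-2.22 ± 0.45, adjusted p = 0.00661) and Irf7 at 8.47, 10.5, 11 and 12.1 against 31.5, 41.9 and 35.5 (-1.78 ± 0.14, adjusted p = 0.000109). The chemokine gene Cxcl10, also counted among chemokines, and the oligoadenylate synthetase-like genes Oasl1 and Oasl2 were lower by -1.67 ± 0.18, -1.60 ± 0.40 and -1.77 ± 0.29. None of these mutant groups overlapped, but the call of Oasl1 was lost without HDAC1cKO replicate 2 or replicate 3 (adjusted p = 0.0631 and 0.0639). The WT restimulated libraries spread widely here: Cxcl10 was at 64.6, 3.51 and 3.92, Mx2 at 39.4, 9.24 and 7.85 and Rsad2 at 13.2, 0.732 and 0.752, with replicate 1 highest each time. Without that library, 5 interferon-stimulated genes were higher and 1 lower in the WT comparison, with a median of 0.16. The mutant minus WT difference called 1 gene of 36 below 0 (median -0.06), but 5 without that library (median -0.56) and 6 with a sex covariate (median -0.89). Only the WT restimulated group held both Xist levels, 0.0188 in replicate 2 beside 42.9 and 33.2 in replicates 1 and 3. The sex covariate, here and below, thus rests on these 3 libraries, among them replicate 1, and cannot separate sex from their other differences. The 1 gene called with all libraries and without this covariate was Ifih1, encoding the RNA sensor MDA5. It was at 18.9, 19.2, 26.2 and 19.4 in HDAC1cKO-HDAC2HET and at 58.8, 67.1 and 63 in HDAC1cKO libraries and at 61.8, 52.3, 63.9 and 53 in WT activated and at 100, 52 and 62.6 in WT restimulated libraries (-1.34 ± 0.27, adjusted p = 0.00592). Gbp7, a guanylate-binding protein gene, was the member called higher, at 36.8 to 43.5 against 14.4 to 19.3 (1.24 ± 0.11, adjusted p = 0.000162), with a WT difference of 1.02 ± 0.32.

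Perforin and granzyme B genes were higher in HDAC1cKO-HDAC2HET cells. Of 18 cytotoxic granule and killing genes tested, 3 were higher in HDAC1cKO-HDAC2HET cells and none was lower (median 0.38), while in WT cells none was higher and 4 of 15 were lower (median -0.10), or 2 of 15 with a pseudocount of 1. The 2 CD8 chains, one of them a member of this list, summed to 12.2 to 15.6 in HDAC1cKO-HDAC2HET and to 6.33 to 6.89 in HDAC1cKO libraries, and the part of CD8+ cells in these values was not tested. The study's methods give a depletion with antibodies to CD8α, B220 and NK1.1, among others, and a sort for naive CD4+ cells before activation. Prf1, encoding the pore-forming protein perforin, was at 17.6, 22.1, 20.9 and 20.9 in HDAC1cKO-HDAC2HET and at 2.09, 1.44 and 2.53 in HDAC1cKO libraries. WT activated libraries were at 0.246, 0.308, 0.294 and 0.377 and WT restimulated libraries at 0.344, 0.189 and 0.33, which overlapped. Perforin message was 9.84-fold higher in HDAC1cKO-HDAC2HET cells (log2 3.30 ± 0.18, adjusted p = 2.1e-05), the WT difference was 0.08 ± 0.23 (adjusted p = 0.805), and the difference between them passed (3.21 ± 0.28, adjusted p = 5.4e-05). Gzmb, encoding granzyme B, was at 504, 900, 575 and 682 in HDAC1cKO-HDAC2HET and at 195, 167 and 221 in HDAC1cKO libraries and at 21.1, 16, 30.8 and 21.3 in WT activated and at 62.4, 15.6 and 22.1 in WT restimulated libraries. It was 3.36-fold higher in HDAC1cKO-HDAC2HET than in HDAC1cKO cells (adjusted p = 0.000568), without overlap, and the HDAC1cKO libraries in turn lay above every WT library (mutant minus WT 2.10 ± 0.55, adjusted p = 0.0238). Cd8b1, the CD8 beta chain, was just past the limit at 11.8 to 15.1 against 6.09 to 6.63 (log2 1.02 ± 0.10), and its call was lost with unscaled FPKM (0.92), with a pseudocount of 1 and without either of HDAC1cKO-HDAC2HET replicates 2 and 3 or HDAC1cKO replicate 2. Fasl, the ligand of the death receptor Fas, did not pass (-0.21 ± 0.13, adjusted p = 0.221; 12.5 to 17.1 against 16 to 18.4). Between the WT groups Fasl was called lower in WT activated cells, at 5.53 to 6.51 against 12.8 to 13.2 (-1.07 ± 0.07, adjusted p = 0.000103). The mutant minus WT difference was 0.86 ± 0.15 (adjusted p = 0.00293), under 2-fold. Klrk1, encoding the activating receptor NKG2D, was at 21.9, 27.1, 23.5 and 29.8 against 4.15, 4.56 and 4.93 and no higher than 0.959 in any WT library (log2 2.46 ± 0.12, adjusted p = 1.1e-05; mutant minus WT 2.90 ± 0.80, adjusted p = 0.0298). Klrc1, encoding NKG2A, went the other way at low levels (0.155 to 0.385 against 0.512 to 0.938, -1.17 ± 0.30), and its partner gene Klrd1 was not called (0.73 ± 0.36, adjusted p = 0.143) except without HDAC1cKO-HDAC2HET replicate 3 (1.05, adjusted p = 0.00544). Of 23 lectin-like receptor genes 4 could be tested, of which 1 was called higher and 1 lower. The call of Klrc1 was lost without HDAC1cKO replicate 1 or 3 (adjusted p = 0.05 and 0.057), and its difference lay under 2-fold without HDAC1cKO-HDAC2HET replicate 3.

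Of 21 cytotoxic and CD4 lineage transcription factor genes, 2 were higher and 1 was lower, beside 6.40% and 7.63% of all genes (median 0.02). Tbx21, encoding T-bet, was at 92.3, 94.3, 95.3 and 94.7 in HDAC1cKO-HDAC2HET and at 68.3, 64.1 and 67 in HDAC1cKO libraries, which differed by 0.50 ± 0.04 (adjusted p = 7.8e-05) without reaching 2-fold, and both mutants lay above every WT library (18.6 to 38.8 and 2.83 to 44). Eomes, encoding the related factor EOMES, was at 35.4, 47.2, 34.4 and 34.7 and 32.7, 40.4 and 32.6, overlapping and not called (0.10 ± 0.14, adjusted p = 0.581), and likewise above the WT libraries (2.11 to 4.72 and 3.53 to 10.8). Runx3, which drives the CD8 lineage program, was at 70.3, 42.8, 42 and 43 in HDAC1cKO-HDAC2HET and at 28.2, 30.4 and 26.3 in HDAC1cKO libraries (log2 0.77 ± 0.19, adjusted p = 0.0146) and at 16.8, 14.7, 17.5 and 14.8 in WT activated and at 23.4, 21.4 and 24.2 in WT restimulated libraries (-0.53 ± 0.08). The directions were opposite and the difference between them was called (1.30 ± 0.22, adjusted p = 0.00236). Zbtb7b, encoding the CD4 lineage factor ThPOK, was level between the mutants at 22.4 to 25.3 and 21.9 to 24.9 (0.02 ± 0.06, 95% interval -0.13 to 0.17). WT activated libraries were at 34.1 to 36.5, above every HDAC1cKO-HDAC2HET library, and WT restimulated libraries at 21.8 to 31.5. The WT difference was 0.40 ± 0.12 (adjusted p = 0.0427), and the mutant minus WT difference of -0.38 ± 0.14 was not called (adjusted p = 0.091). Bcl6, a repressor that opposes Blimp-1, was at 0.725, 0.753, 0.812 and 0.597 against 3.43, 3.83 and 3.48 (4.5-fold lower, log2 -2.17 ± 0.13, adjusted p = 2.7e-05), and fell by less between WT groups (-1.08 ± 0.11; difference -1.09 ± 0.16, adjusted p = 0.000969). Prdm1, encoding Blimp-1, was at 3.39, 3.97, 2.06 and 2.76 against 0.212, 0.138 and 0.241 and at no more than 0.177 in WT cells (3.38 ± 0.25, adjusted p = 7.7e-05), but its loci were unlike between the experiments. Ikzf3, encoding Aiolos, passed narrowly (1.05 ± 0.22, adjusted p = 0.0081) and lost its call with unscaled FPKM, with a pseudocount of 1 and without HDAC1cKO-HDAC2HET replicate 2 or 4 or HDAC1cKO replicate 2.

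Of 10 follicular helper genes tested, 4 were lower in HDAC1cKO-HDAC2HET cells, beside 7.63% of all genes, none was higher and 6 were not called (median -0.46), against 2 higher and 1 lower of 11 in WT cells (median 0.31). The mutant minus WT difference called 5 of 10 below 0 (median -1.21), and 3 of 8 with loci matched at 0.95 of their joint span. Pou2af1, encoding the OCT coactivator OBF1, was at 1.09, 1.17, 1.23 and 1.2 in HDAC1cKO-HDAC2HET and at 10.8, 7.04 and 7.47 in HDAC1cKO libraries (6.6-fold lower, log2 -2.72 ± 0.16, adjusted p = 2.5e-05). Both WT groups were higher and overlapped, at 12.7 to 21.4 and 14.5 to 25.1, and the difference from WT was -2.57 ± 0.30 (adjusted p = 0.000246). Il6ra, the IL-6 receptor alpha chain, was at 2.76, 2.23, 2.96 and 2.56 in HDAC1cKO-HDAC2HET and at 11.7, 6.51 and 7.61 in HDAC1cKO libraries and at 19.9, 24.3, 22.1 and 23.2 in WT activated and at 9.91, 13.4 and 11.2 in WT restimulated libraries. Mutant and WT cells differed in opposite directions (-1.64 ± 0.21 and 0.96 ± 0.12), by -2.60 ± 0.25 between them (adjusted p = 8.5e-05). Slamf6, a SLAM family receptor gene, was not called between the mutants (-0.53 ± 0.33, adjusted p = 0.233), which lay at 9.81 to 15.4 and 10.3 to 28.3 against 51.6 to 57.3 in WT activated and 13.5 to 24.9 in WT restimulated cells (mutant minus WT -2.01 ± 0.41, adjusted p = 0.00712).

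Of 13 inhibitory receptors and ligands, 5 were lower and 3 higher in HDAC1cKO-HDAC2HET cells, beside 7.63% and 6.40% of all genes. In WT cells 1 of 13 was lower. Pdcd1, encoding PD-1, was at 23, 24.7, 29.7 and 27 against 67.6, 68.5 and 61.5 (log2 -1.34 ± 0.09, adjusted p = 5.7e-05) and Btla at 36.3, 32.7, 42.7 and 38 against 88.2, 87.5 and 85 (-1.22 ± 0.09, adjusted p = 6.2e-05). In WT cells Pdcd1 was at 64.3 to 75.7 and 75.7 to 102 and Btla at 134 to 143 and 105 to 110, so that the HDAC1cKO-HDAC2HET libraries were lowest of all. The mutant minus WT differences were -1.04 ± 0.15 and -1.58 ± 0.10 (adjusted p = 0.000933 and 4.5e-06). Nt5e encodes CD73, the ectoenzyme that makes adenosine from AMP. It was at 0.283, 0.229, 0.281 and 0.233 in HDAC1cKO-HDAC2HET, at 1.4, 2.75 and 2.66 in HDAC1cKO, at 6.51, 8.37, 9.14 and 8.59 in WT activated and at 8.28, 11.7 and 8.08 in WT restimulated libraries. The levels formed 3 tiers without overlap, HDAC1cKO-HDAC2HET below HDAC1cKO below both WT groups, which overlapped with each other. The mutants differed by -2.68 ± 0.25 (adjusted p = 0.000221) and the WT groups by -0.18 ± 0.17 (adjusted p = 0.451; difference -2.49 ± 0.31, adjusted p = 0.000379). Cd96, a nectin-binding receptor gene, was lower by -1.42 ± 0.17 between mutants and by -1.14 ± 0.14 between WT groups. Tigit, which shares its ligand, was higher instead (85.6 to 98 against 34.4 to 47.4, 1.22 ± 0.11, adjusted p = 0.0002), with WT groups that overlapped (0.02 ± 0.38). Entpd1, encoding CD39, was higher at low levels (1.42 ± 0.34), and Lag3 was higher by less than 2-fold (145 to 190 against 79.6 to 102, 0.84 ± 0.13, adjusted p = 0.0021). Of 15 costimulatory receptor genes 3 were lower and none higher, beside 7.63% and 6.40% of all genes. The lower genes were Tnfrsf1b, encoding TNF receptor type 2 (9.4 to 10.1 against 19.1 to 21.9, -1.09 ± 0.06), the decoy receptor gene Tnfrsf26 (-1.24 ± 0.20) and, just past the limit, the hyaluronan receptor gene Cd44 (-1.01 ± 0.08, WT -1.21 ± 0.14). The call of Cd44 was lost with upper quartile scaling and without HDAC1cKO-HDAC2HET replicate 2 or HDAC1cKO replicate 1. Icos and Tnfrsf4, encoding OX40, were not called (0.32 ± 0.13 and -0.24 ± 0.07).

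**Figure D4:**
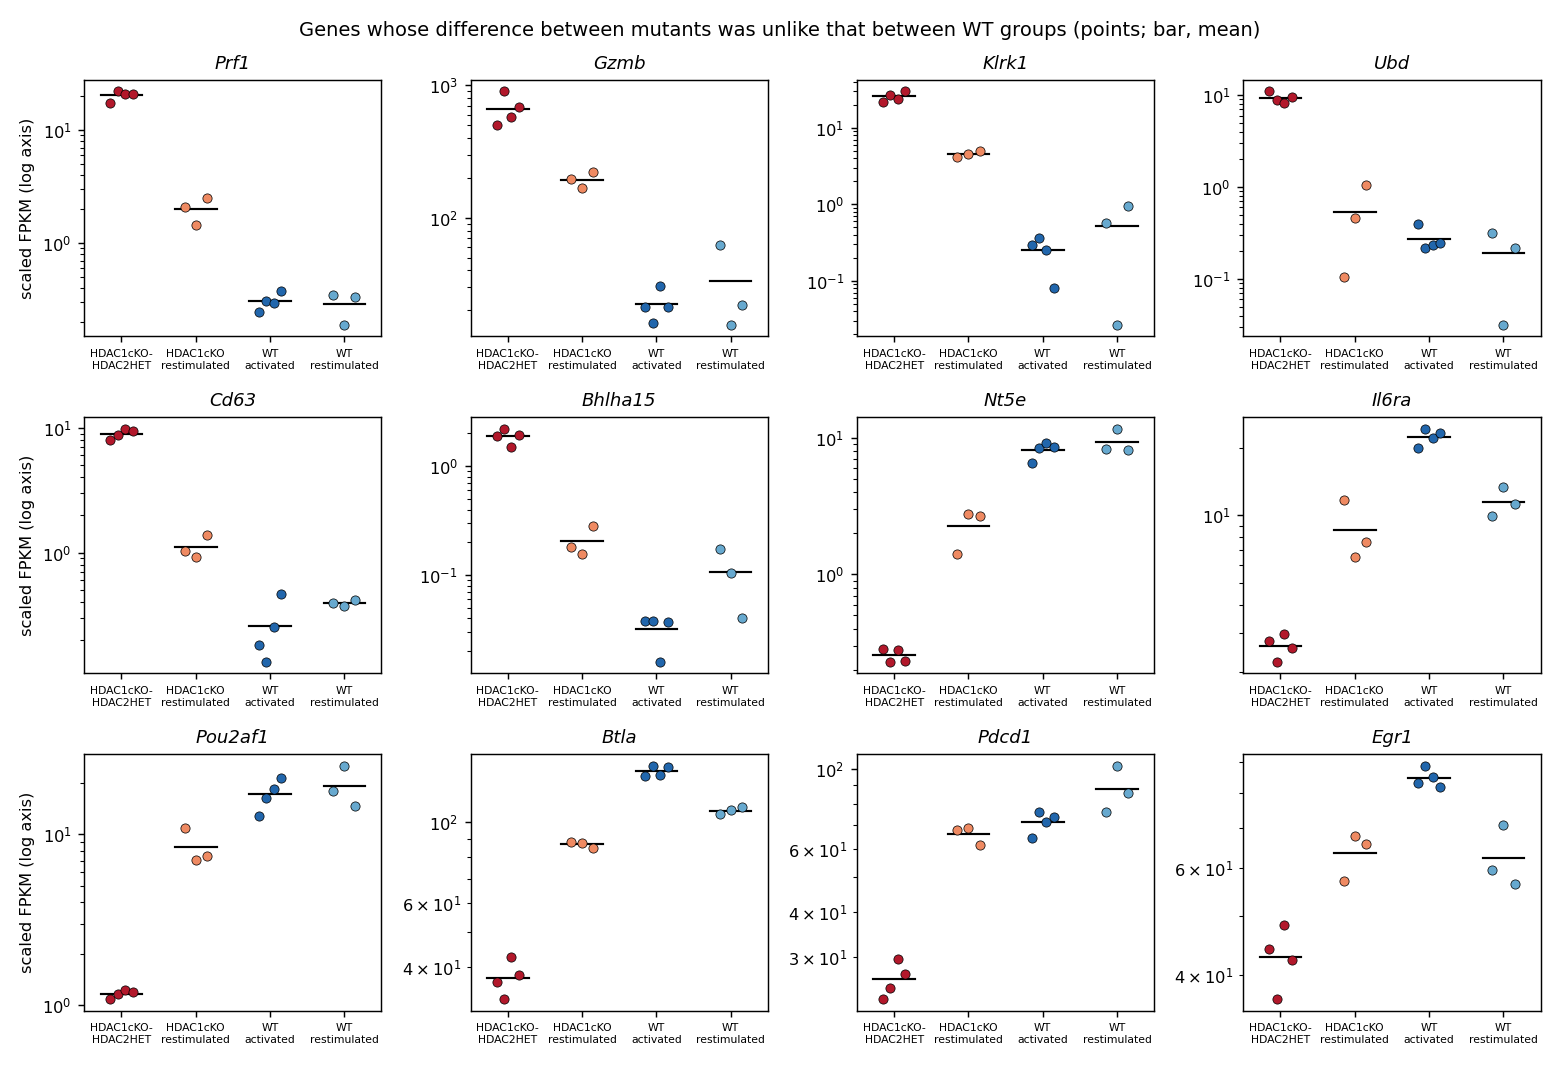
Scaled FPKM on log axes in each library (points) with group means (bars) for 12 genes called in the mutant minus WT difference. Prf1, Gzmb, Klrk1, Ubd, Cd63 and Bhlha15 were highest in HDAC1cKO-HDAC2HET libraries, and Nt5e, Il6ra, Pou2af1, Btla, Pdcd1 and Egr1 lowest, as for Nt5e at 0.229 to 0.283.

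Receptors for homing and for interleukins split in both directions. Of 21 chemokine and homing receptor genes, 6 were higher and 4 lower, beside 6.40% and 7.63% of all genes, or 6 and 2 with a pseudocount of 1. In WT cells 2 and 2 of 22 were called (1 and 4 with unscaled FPKM). Ly6c2 and Ly6c1, which encode the Ly6C surface antigens of memory and effector cells and are near-identical paralogs, so that reads can be split between them, were at 25.7 and 50.9 in HDAC1cKO-HDAC2HET and at 4.71 and 12.3 in HDAC1cKO cells on average (2.38 ± 0.32 and 2.15 ± 0.34). WT means were 1.27 and 0.446 in activated and 0.496 and 0.256 in restimulated cells. The loci of Ly6c1 were just under the limit of likeness between experiments, which limits its comparison. The integrin gene Itgb3 was higher (1.76 ± 0.16, WT 1.07 ± 0.14). Gpr183, encoding the oxysterol receptor EBI2, was lower (4.08 to 5.38 against 15.3 to 21.2, -1.87 ± 0.15, WT -0.99 ± 0.18). Of 16 interleukin receptor genes, 3 were higher and 2 lower, beside 6.40% and 7.63% of all genes. Il12rb2, the inducible IL-12 receptor chain of Th1 cells, was at 272, 264, 193 and 247 against 58.6, 49 and 61 (4.32-fold higher, adjusted p = 4.2e-05). It had no usable value in WT activated cells and was at 13.9, 1.75 and 12.8 in WT restimulated cells. Il7r, the IL-7 receptor alpha chain, was at 22.8, 21.1, 16.9 and 20.6 against 7.51, 6.17 and 6.72, while WT cells of both kinds were at 5.07 or less. Its mutant difference of 1.56 ± 0.11 (adjusted p = 7.4e-05) and its WT difference of -0.44 ± 0.32 differed by 2.00 ± 0.35 (adjusted p = 0.00303). Il2rb, the shared beta chain of the IL-2 and IL-15 receptors, was 2.67-fold higher (346 to 392 against 124 to 161), whereas Il2ra differed by 0.23 ± 0.06. Il1r2, a decoy receptor gene, was lower in both genotypes at low levels (-1.58 ± 0.32, WT -1.77 ± 0.17). Among 21 quiescence and naive T cell genes 2 were called higher, among them Il7r, and none was lower, beside 6.40% and 7.63% of all genes. Tcf7, encoding TCF-1, did not pass (-0.21 ± 0.12, adjusted p = 0.196), nor did Klf2 (0.65 ± 0.23, adjusted p = 0.0575), which was at 17.8 to 23.3 in WT activated and 3.55 to 5.4 in WT restimulated but at no more than 2.59 in any mutant library (mutant minus WT -1.57 ± 0.30, adjusted p = 0.00433). Of 7 Th17 genes 3 were lower, among them the aryl hydrocarbon receptor gene Ahr (-1.74 ± 0.23), with 3 of 6 lower in WT cells. Of 11 Th1 genes 1 was higher and 2 were lower, of 8 Th2 genes none was higher and 2 were lower, and of 12 regulatory T cell genes 2 were higher and 2 lower. These small counts, and that of Th17 genes, stand beside 6.40% higher and 7.63% lower of all genes.

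Glycolysis and hypoxia genes had the highest median mutant difference of the functional lists, 0.66, with 8 of 27 higher in HDAC1cKO-HDAC2HET cells and none lower. The WT difference was of the same kind, with 8 higher and 1 lower of 26 and a median of 0.84. The mutant count was 5 with unscaled FPKM and 5 without HDAC1cKO-HDAC2HET replicate 1. Pgam1, a glycolytic mutase gene with closely similar pseudogenes, was at 248, 229, 223 and 230 against 33.3, 32.9 and 37.2 (log2 2.75 ± 0.06, adjusted p = 3.0e-07) and at 270, 279, 278 and 276 against 34.1, 31.3 and 28.7 in WT cells (3.13 ± 0.06). Egln3, encoding the oxygen sensor PHD3, was at 43, 30.5, 29.4 and 33 against 7.61, 5.69 and 5.58 (2.41 ± 0.16), and Bnip3, which mediates mitophagy, at 43.8, 27.1, 19.5 and 22.2 against 6.83, 6.28 and 6.84 (1.99 ± 0.26), with WT differences of 3.26 ± 0.55 and 2.18 ± 0.30. The lactate exporter gene Slc16a3 (1.28 ± 0.12, WT 1.40 ± 0.17) and Vegfa (1.13 ± 0.18, WT 0.92 ± 0.41) followed, and Hif1a, the hypoxia factor itself, passed narrowly (1.02 ± 0.13), losing its call with unscaled FPKM (0.92) and without HDAC1cKO-HDAC2HET replicate 1 or HDAC1cKO replicate 2. The call of Vegfa was lost without HDAC1cKO replicate 1 (0.93). Ldha, with unlike loci, was higher by 0.55 ± 0.08, under 2-fold. Of 27 sterol and fatty acid genes, 2 were higher and 1 lower between mutants, beside 6.40% and 7.63% of all genes, so this list did not stand out. Between WT groups 7 of 26 were higher, beside 4.26% of all genes. Elovl6, a fatty acid elongase gene, was higher in both (13.6 to 16.5 against 3.75 to 4.65, 1.84 ± 0.10, WT 1.19 ± 0.14). The cholesterol efflux pump gene Abca1 was lower (-1.16 ± 0.23), without HDAC1cKO replicate 3 by 0.91, under the limit. Cell cycle genes differed by small amounts: of 27 G1/S genes none was higher and 1 lower (median 0.30), and of 25 G2/M genes 1 was higher (median 0.35), with WT medians of 0.22 and 0.32. Mki67, the proliferation marker gene, was at 78.2, 67.7, 72.1 and 63.5 against 41.8, 32.9 and 39.7 (0.88 ± 0.10, adjusted p = 0.00056) and Mcm5, of the replicative helicase, differed by 0.55 ± 0.11. The centromere protein gene Cenpf was called higher (1.14 ± 0.11), and Cdk4, whose exons overlap Tspan31 on the opposite strand, lower in both genotypes (-1.31 ± 0.13, WT -1.13 ± 0.10). Of 19 inhibitors of cyclin-dependent kinases and p53 targets, 4 were lower and 1 higher, beside 7.63% and 6.40% of all genes. Cdkn1a, encoding p21, was at 38.9, 47.1, 44.2 and 44.6 against 153, 138 and 132 (3.23-fold lower, adjusted p = 1.0e-05) and at 60.7 ± 3.99 (SD, n = 4) against 161 ± 24.9 (SD, n = 3) in WT cells (-1.69 ± 0.08 and -1.39 ± 0.11; difference -0.30 ± 0.14, adjusted p = 0.183). Phlda3 (-1.51 ± 0.16), the stress gene Gadd45b (-1.24 ± 0.12) and Trp53inp1 (-1.01 ± 0.30) were lower and Gadd45g was higher (2.07 ± 0.09), with WT differences of -0.85 ± 0.27, -2.25 ± 0.45, -0.23 ± 0.14 and 1.09 ± 0.56. The call of Trp53inp1 was lost with upper quartile scaling and without any one of HDAC1cKO-HDAC2HET replicates 2, 3 and 4 or HDAC1cKO replicate 1. Of 21 BCL-2 family and death genes, 3 were higher and 1 lower, beside 6.40% and 7.63% of all genes. Bcl2 was higher in both genotypes (1.60 ± 0.19, WT 1.62 ± 0.09), whereas the BH3-only gene Bmf was called higher in the mutants (1.01 to 1.55 against 0.162 to 0.463, 1.87 ± 0.31) and in the difference from WT (2.05 ± 0.49, adjusted p = 0.015). Bid was higher (1.08 ± 0.22), without HDAC1cKO replicate 1 by 0.78 and with unscaled FPKM by 0.97, both under the limit, and Cflar, which blocks caspase 8, was lower (-1.19 ± 0.08; difference from WT -1.03 ± 0.29, adjusted p = 0.0325).

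**Figure D5:**
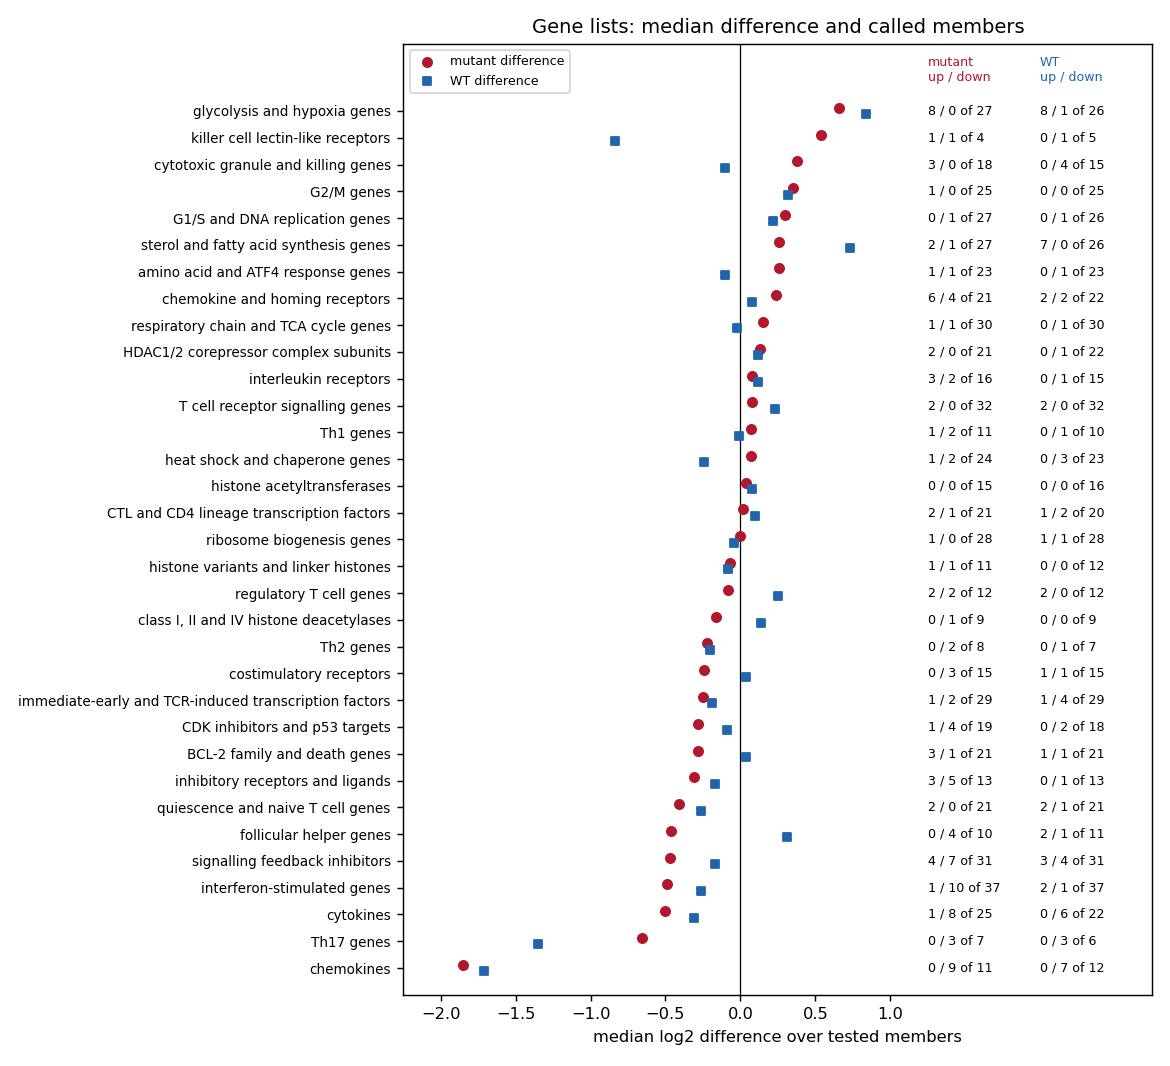
Median log2 difference over the tested members of each gene list between the mutant groups (red circles) and between the WT groups (blue squares), with the number of members called higher (up) and lower (down) of those tested at the right. Chemokines lie at -1.85 and -1.71 and glycolysis and hypoxia genes at 0.66 and 0.84, while follicular helper genes lie at -0.46 and 0.31.

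Lists of basal functions are read beside the 6.40% of all genes called higher and 7.63% called lower. Of 21 corepressor complex subunit genes 2 were higher: Gatad2a, a NuRD subunit gene (60.2, 62.2, 61.2 and 65.8 against 28.2, 27.6 and 29.8, log2 1.13 ± 0.05, adjusted p = 6.0e-06; WT 0.52 ± 0.06), and Rcor2, of CoREST (4.78, 5.12, 5.62 and 5.62 against 4.75, 1.6 and 1.63, 1.15 ± 0.37, adjusted p = 0.0385). HDAC1cKO replicate 1 lay near the other group in Rcor2, and that call was lost with several alternatives, for example an adjusted p of 0.0501 with no minimum level. Sin3a, the scaffold of the Sin3 complex, was level (-0.14 ± 0.11, 95% interval -0.41 to 0.13), and Chd4 and Rcor1 were higher by less than 2-fold (0.57 ± 0.06 and 0.57 ± 0.16). None of 15 histone acetyltransferase genes was called, and 1 of 28 ribosome biogenesis, 2 of 32 TCR signalling, 2 of 30 respiratory chain, 2 of 23 amino acid response, 2 of 11 histone variant and 3 of 24 chaperone genes were.

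Among 8494 protein-coding genes with a mean of at least 1 in the mutants, a value above 0 in all 7 and like loci, 843 were called without overlap of the groups. Of the 12 largest rises and 12 largest falls of these, 9 rises and 9 falls were also called in the same direction in WT cells, and of the 22 tested in the mutant minus WT difference, 8 were called there. Pcsk6, a proprotein convertase gene (chr7:65861734-66050386), was at 92.7, 140, 98 and 102 in HDAC1cKO-HDAC2HET and at 0.139, 0.14 and 0.145 in HDAC1cKO libraries (log2 8.79 ± 0.14), and at 104, 140, 103 and 112 in WT activated and 0.211, 0.0675 and 0.0825 in WT restimulated libraries (log2 9.07 ± 0.23). Each library of the first experiment, of either genotype, was thus far above each of the second, and the mutant minus WT difference was -0.28 ± 0.29 (adjusted p = 0.566). The same pattern held for Gm10282 (6.41 ± 0.14, WT 6.32 ± 0.24), for Tomm20, a mitochondrial import receptor gene with many pseudogenes (333 to 377 against 19.2 to 22, 4.11 ± 0.07, WT 3.99 ± 0.09), and in the other direction for the ribosomal protein genes Rps27rt (3.63 to 5.67 against 789 to 1048, -7.60 ± 0.19, WT -7.55 ± 0.16) and Rps20 (-3.86 ± 0.09, WT -3.69 ± 0.06). Multigene families such as these share reads with near-identical copies, which makes their levels less certain. Exons of Pcsk6, Rps20 and Spp1 overlap another gene on the same strand (Gm45213, Gm24016 and Gm42793), so reads may be mixed there too. Mkln1 (-4.12 ± 0.05, WT -3.58 ± 0.48), Ltbp1 (-4.66 ± 0.15, WT -4.90 ± 0.17), Fstl1 (-4.44 ± 0.17, WT -4.73 ± 0.17), Tmc5 (-4.26 ± 0.21, WT -4.15 ± 0.19) and Ghrh (-4.83 ± 0.44, WT -4.77 ± 0.45) were lower in both genotypes, and Spp1, encoding osteopontin (50.2 to 76.2 against 3.96 to 7.8, 3.48 ± 0.24, WT 3.60 ± 0.35), and Akr1c12 (3.60 ± 0.48, WT 2.79 ± 0.26) were higher in both. Slc6a20b, whose exons overlap Sacm1l on the opposite strand, was at 6.08 to 7.27 against 0.00734 to 0.0164 and at 6.76 to 7.75 against 0.024 and 0.00926 in the WT libraries with a value. Sgip1 was at 0.0446 to 0.0911 against 5.2 to 6.07, with WT activated libraries up to 0.0189 and WT restimulated libraries at 7.88 to 11.4. The scaffold gene Tanc2 (-5.12 ± 0.59, WT -2.43 ± 0.54; difference -2.69 ± 0.85, adjusted p = 0.0537) and the mitochondrial creatine kinase gene Ckmt1 (-3.86 ± 0.30, WT -2.08 ± 0.78; difference -1.79 ± 0.88, adjusted p = 0.207) spread widely within groups, and the difference from WT did not pass. Ltbp1, Fstl1, Tanc2 and Ckmt1 were listed by name in all 4 HDAC1cKO-HDAC2HET libraries. In the 3 HDAC1cKO libraries their values came from loci without a gene name, matched by position. The same change of source held for Il2, Bcl6, Tnfsf11, Gstt1, Ccl22, Rgs2, Rsad2 and Slc6a20b, among others. Gm10282, Rps27rt and Akr1c12 were listed by name in all 7, and Pcsk6 and Tomm20 in none. The part of this change of source in the differences was not tested.

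The other large rises exceeded those in WT cells. Pglyrp1, encoding a peptidoglycan recognition protein, was at 24.3, 22.2, 14.7 and 16 against 1.06, 0.967 and 0.742 (log2 4.23 ± 0.21, adjusted p = 1.3e-05) and at 9.27, 9.25, 9.22 and 8.28 against 1.67, 1.47 and 1.24 in WT cells (2.55 ± 0.11), with a difference of 1.67 ± 0.25 (adjusted p = 0.00111). Gstt1, a glutathione transferase gene (3.60 ± 0.22, WT 1.71 ± 0.16), Plac8 (14.5 to 26.2 against 1.26 to 3.11, 3.44 ± 0.34, WT 1.56 ± 0.36) and Fam20a (4.04 ± 0.27, WT 2.46 ± 0.35) were likewise higher in both genotypes and more so in mutants (adjusted p of the difference = 0.00117, 0.0304 and 0.0372). Madcam1, the addressin that binds the gut homing integrin, was at 7.25, 7.71, 8.75 and 7.95 against 0.532, 0.631 and 0.875 (3.38 ± 0.16, adjusted p = 1.0e-05), and at 0.249 or less in every WT library, 1 of them listed at 0 (difference 2.61 ± 0.40, adjusted p = 0.00137). Ubd, encoding the ubiquitin-like modifier FAT10, was at 11, 8.88, 8.31 and 9.54 in HDAC1cKO-HDAC2HET and at 0.105, 0.46 and 1.06 in HDAC1cKO libraries. WT levels were 0.392, 0.215, 0.236 and 0.244 (activated) and 0.32, 0.0318 and 0.216 (restimulated), overlapping with each other. The mutants differed by 4.21 ± 0.53 (adjusted p = 0.000783) and by 3.72 ± 0.71 more than WT cells (adjusted p = 0.00476), a call lost with a sex covariate (2.74, adjusted p = 0.0544). Cd63, a tetraspanin of granules and exosomes, was at 8.01, 8.68, 9.87 and 9.44 against 1.03, 0.919 and 1.39 (7.58-fold higher, log2 2.92 ± 0.15, adjusted p = 1.3e-05), and at 0.133 to 0.464 and 0.371 to 0.413 in WT cells, with a difference from WT of 3.46 ± 0.35 (adjusted p = 0.000123). Bhlha15, encoding the secretory factor MIST1, was at 1.89, 2.22, 1.49 and 1.92 against 0.182, 0.155 and 0.281 and no higher than 0.174 in WT cells (difference 3.30 ± 0.34, adjusted p = 0.000127).

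In Mt2, Ramp3, Dnm1 and Ccdc184 the WT difference was the larger in size. Mt2, encoding a metallothionein that binds zinc, was at 49.5, 63.1, 46.1 and 69.7 in HDAC1cKO-HDAC2HET and at 86.1, 111 and 116 in HDAC1cKO libraries (-0.87 ± 0.17, called only without HDAC1cKO replicate 1), but at 4.65, 4.17, 8.19 and 5.45 in WT activated libraries and 141 ± 62.4 (SD, n = 3) in WT restimulated libraries (-4.55 ± 0.39; difference 3.68 ± 0.45, adjusted p = 0.000362). Ramp3, a calcitonin receptor partner gene whose exons overlap Gm11978 on the opposite strand, was at 64 to 85.4 and 32.3 to 58.2 in the mutants (0.80 ± 0.20, called at 1.01 without HDAC1cKO replicate 3) and at 1.3 to 3.82 and 11.4 to 66.5 in WT cells (-2.96 ± 0.68; difference 3.76 ± 0.75, adjusted p = 0.0059). With a sex covariate this difference was 2.80 (adjusted p = 0.0674). Dnm1, encoding dynamin 1, and Ccdc184 were higher in HDAC1cKO-HDAC2HET than in HDAC1cKO cells (1.68 ± 0.27 and 1.38 ± 0.11) and lower in WT activated than in WT restimulated cells (-1.97 ± 0.34 and -1.96 ± 0.36). Their differences were 3.66 ± 0.45 and 3.34 ± 0.39 (adjusted p = 0.000379 and 0.000273). In Dnah7a, Galnt14 and Dhrs3, below 0 in the difference from WT, the WT groups overlapped. Dnah7a, an axonemal dynein gene, was at 0.889, 0.752, 1.35 and 0.943 against 3.74, 21.2 and 22 (-3.52 ± 0.62, adjusted p = 0.00355; WT 0.41 ± 0.47; difference -3.93 ± 0.83, adjusted p = 0.00828). Galnt14, a glycosyltransferase gene, was at 0.187, 0.289, 0.523 and 0.492 against 5.15, 4.91 and 2.6 (-3.20 ± 0.36, adjusted p = 0.000488) and Dhrs3, which reduces retinaldehyde, at 0.664, 1.47, 1.25 and 0.693 against 3.61, 8.82 and 6.77 (-2.52 ± 0.39, adjusted p = 0.00192). Their WT means were 2.38 and 3.47 for Galnt14 and 13.7 and 14 for Dhrs3, with differences from WT of -2.73 ± 0.61 and -2.59 ± 0.56 (adjusted p = 0.0111 and 0.00957). With a sex covariate both calls were lost (-2.56 and -2.33, adjusted p = 0.0705 and 0.0721). Stfa3, a stefin gene of a family of near-identical copies, was not called between the mutants (5.45 to 13.9 and 3.07 to 5.89, 0.71 ± 0.37) but was at 72.8 to 107 in WT activated against 5.84 to 7.98 in WT restimulated cells (3.63 ± 0.16; difference -2.92 ± 0.43). 5730480H06Rik showed the same form (-0.34 ± 0.09 and 2.48 ± 0.26; difference -2.82 ± 0.29), but its loci were unlike between the WT groups, which limits that value.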

How the data were processed

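Per the study's methods, total RNA from FACS-purified activated CD4+ T cells was sequenced as stranded mRNA libraries (50-bp single reads). For the HDAC1cKO experiment the paper refers to an earlier report, and its methods do not say that those libraries were prepared alike. By the same methods, reads were mapped to mm10 (GRCm38) with TopHat and FPKM per gene and library was computed with Cufflinks. The deposited tables hold FPKM with confidence bounds. Submitters' notes also list other tools without a role.

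Here, loci that Cufflinks left nameless were counted as a gene where they shared at least 0.8 of the joint span. Because loci were assembled per library, 595 tested genes rest on loci that share less between the mutant groups. Libraries listed 51596 to 55937 loci in the HDAC1cKO-HDAC2HET experiment and 42515 to 44059 in the HDAC1cKO experiment. A gene can therefore be listed by name in 1 experiment and be matched by position in the other. FPKM was scaled by median ratio over autosomal genes above 0 in all 7 mutant libraries with a mean of at least 1. The reference was the geometric mean of the mutant libraries, and WT libraries were scaled to it as well. Scaled FPKM was transformed as log2(scaled FPKM + 0.1), which understates changes of low genes. It was tested with limma 3.58.1 in R 4.3.3 (intensity trend, Benjamini-Hochberg adjustment, mean of at least 0.1). A gene was called where it differed by 2-fold or more with an adjusted p up to 0.05. The mutant comparison used the 7 mutant libraries, the WT comparison the 7 WT libraries and their difference all 14. On simulated data for the mutant comparison, 177 of 192 changed genes were recovered with 4 false calls among 12779 genes. All planted changes were larger than the 2-fold limit, and the noise was independent between libraries. These counts therefore do not describe genes near that limit or differences between the experiments. Depth was taken from low, single-transcript genes listed by name, 1072 to 2212 per library. Of their FPKM values, 83.5% to 88.8% came out as whole fragments within 0.05, so depth is an estimate and no count test was run. The authors' fold changes and pathway results were not used.

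Gene coordinates are from the GENCODE annotation of GRCm38 and promoters from RefSeq (GRCm38.p6). Named genes were the 12 largest called rises and falls without overlap among protein-coding genes, the 8 largest differences from WT in each direction, and from each list the members with the largest mutant differences (up to 6) with members of known role as exceptions, while 10 lists were given by counts alone and some genes are not reported here. The members, lists and rules were chosen with earlier results of these data known. Alternatives were another pseudocount, minimum, scaling, variance model and matching of loci, a replicate block, a sex covariate and leaving out each library.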

Additional observations from a re-analysis of the deposited data

Results flagged for a closer look

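In 21 of 275 groups of 4 libraries looked at, 1 library lay apart from the other 3 by more than Dixon's 95% critical value, where chance flags about 1 in 20 groups. Among WT activated libraries, the highest value (scaled FPKM) stood apart in replicate 1 for Abca1 (0.608 beside 0.4 to 0.416), Ghrh (0.0527 beside 0 in each other library), Ubd (0.392 beside 0.215 to 0.244), in replicate 2 for Ckmt1 (1.51 beside 0.961 to 1.04), Dnah7a (9.19 beside 2.7 to 3.01), Il7r (3.33 beside 2.03 to 2.21), Zbtb7b (36.5 beside 34.1 to 34.3), in replicate 4 for Mkln1 (23.4 beside 6.18 to 6.41). Among WT activated libraries, the lowest value (scaled FPKM) stood apart in replicate 1 for Klf2 (17.8 beside 22.5 to 23.3), in replicate 3 for Bhlha15 (0.016 beside 0.0373 to 0.0378), in replicate 4 for Pglyrp1 (8.28 beside 9.22 to 9.27). Among HDAC1cKO-HDAC2HET libraries, the highest value (scaled FPKM) stood apart in replicate 1 for Lag3 (190 beside 145 to 147), Runx3 (70.3 beside 42 to 43), in replicate 2 for Eomes (47.2 beside 34.4 to 35.4), Ghrh (0.264 beside 0.107 to 0.127), in replicate 3 for Fstl1 (0.0349 beside 0.00607 to 0.00995), Ifih1 (26.2 beside 18.9 to 19.4), Spry4 (1.16 beside 0.85 to 0.894). Among HDAC1cKO-HDAC2HET libraries, the lowest value (scaled FPKM) stood apart in replicate 3 for Ikzf3 (6.37 beside 9.37 to 9.82), Klf2 (1.84 beside 2.49 to 2.59), in replicate 4 for Mkln1 (5.1 beside 5.54 to 5.57).

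The mutant difference and the WT difference were tested against each other in 1 fit over all 14 libraries (limma), and among the named genes 43 were called, 20 above 0 and 23 below 0. Mutant minus WT differences on the log2 scale were furthest below 0 in Dnah7a (-3.93, adjusted p = 0.00828), Stfa3 (-2.92, adjusted p = 0.00101), 5730480H06Rik (-2.82, adjusted p = 0.000125), Galnt14 (-2.73, adjusted p = 0.0111), Il6ra (-2.60, adjusted p = 8.5e-05), Dhrs3 (-2.59, adjusted p = 0.00957), Pou2af1 (-2.57, adjusted p = 0.000246) and Nt5e (-2.49, adjusted p = 0.000379). Smaller differences below 0 were those of Ccl20 (-2.44, adjusted p = 0.0429), Il2 (-2.17, adjusted p = 0.0059), Slamf6 (-2.01, adjusted p = 0.00712), Tnfsf9 (-1.95, adjusted p = 0.0053), Egr4 (-1.76, adjusted p = 0.000843), Btla (-1.58, adjusted p = 4.5e-06), Klf2 (-1.57, adjusted p = 0.00433) and Ifih1 (-1.34, adjusted p = 0.00592). Closest to the 2-fold limit on this side were Tnfrsf26 (-1.29, adjusted p = 0.00744), Rgs1 (-1.27, adjusted p = 0.00823), Bcl6 (-1.09, adjusted p = 0.000969), Rgs16 (-1.05, adjusted p = 0.0143), Pdcd1 (-1.04, adjusted p = 0.000933), Cflar (-1.03, adjusted p = 0.0325) and Egr1 (-1.02, adjusted p = 0.000706). Above 0, the smallest called differences were those of Runx3 (1.30, adjusted p = 0.00236), Fam20a (1.58, adjusted p = 0.0372), Rcor2 (1.62, adjusted p = 0.047), Pglyrp1 (1.67, adjusted p = 0.00111), Plac8 (1.88, adjusted p = 0.0304), Gstt1 (1.89, adjusted p = 0.00117) and Il7r (2.00, adjusted p = 0.00303). Intermediate differences were those of Bmf (2.05, adjusted p = 0.015), Gzmb (2.10, adjusted p = 0.0238), Madcam1 (2.61, adjusted p = 0.00137), Klrk1 (2.90, adjusted p = 0.0298), Prdm1 (3.12, adjusted p = 0.000477), Prf1 (3.21, adjusted p = 5.4e-05) and Bhlha15 (3.30, adjusted p = 0.000127). Furthest above 0 were Ccdc184 (3.34, adjusted p = 0.000273), Cd63 (3.46, adjusted p = 0.000123), Dnm1 (3.66, adjusted p = 0.000379), Mt2 (3.68, adjusted p = 0.000362), Ubd (3.72, adjusted p = 0.00476) and Ramp3 (3.76, adjusted p = 0.0059). The libraries behind each are given with the genes in the text above, and the calls of Ubd, Ramp3, Galnt14 and Dhrs3 were lost with a sex covariate (adjusted p = 0.0544, 0.0674, 0.0705 and 0.0721). That covariate was estimated within the WT restimulated libraries alone, so these losses cannot be assigned to sex.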

How the results depend on the processing

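The share of tested genes called higher and lower was 6.40% and 7.63% between the mutants, 4.26% and 6.48% between the WT groups, and 2.95% above and 1.84% below 0 in the mutant minus WT difference. With a pseudocount of 1 these shares were 2.96% and 3.72%, 2.06% and 3.29%, and 1.49% and 0.895%. With a mean of at least 1 FPKM they were 5.38% and 6.04%, 3.50% and 5.14%, and 2.38% above 0. Genes listed by name in every library, 2685 between the mutants, gave 8.75% and 6.85%, 6.77% and 6.18%, and 1.91% and 0.706%. Only 17 of the 139 named genes were among those 2685, and these 17 kept their result between the mutants. FPKM without scaling gave 731 higher and 1164 lower genes between the mutants, with a median log2 difference of all genes of -0.11. With a replicate block the shares were 5.69% and 6.88%, 2.93% and 4.13%, and 2.63% and 1.71%. Nothing states that the replicate numbers pair samples, the deviations of the 3 same-numbered mutant pairs from their group means correlated at -0.01 to 0.02 across genes, and 1 of 3 HDAC1cKO libraries correlated best with its own number. The block ended the calls of Klrc1, Ikzf3, Rcor2 and Entpd1 between the mutants. Leaving out 1 library at a time gave 5.86% to 6.40% and 7.13% to 7.73% between the mutants, 3.86% to 4.60% and 5.48% to 6.70% between the WT groups, and 2.47% to 2.99% and 1.52% to 2.27% in their difference.

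The signs of 2 near-level genes turned: Zbtb7b was at -0.08 with FPKM without scaling and at -0.03 to 0.06 without 1 library, and Eomes at 0.00 and at -0.01 to 0.20. Of 139 named genes, 14 lost their call with a pseudocount of 1, 5 without scaling, 2 with upper quartile scaling and none with array weights. Sex could not be fitted as a covariate in the mutant comparison, since it separates the groups. In the fits that held WT libraries it was estimated from WT restimulated replicate 2 against replicates 1 and 3 only. The causes of these changes were not tested. Values near the pseudocount of 0.1 rest on few fragments, which limits the comparison of low genes.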
